A study of Mus musculus with 6 samples.

Results

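The genes described here are 42 imprinted genes of the mouse, taken as a fixed list of symbols and read by locus and by the parental allele from which each is known to be transcribed. In the table of 37224 genes, 38 of them were found by their Ensembl identifier and *Snrpn* by its coordinates, so that 39 have values. *Rian*, *Mirg* and *Kcnq1ot1* were not matched and are not analysed here. RNA came from whole embryonic pancreata of wild-type (wt) C57/Bl6J mice, taken 13.5 or 15.5 days post coitum (dpc). Each stage has 3 independent samples, in each of which the organs of up to 3 embryos were combined. No sample carried a transgene or a treatment. All samples come from the same inbred strain, so the counts do not separate the parental alleles, and the allele named for a gene is what is known of it and not a measurement. Because the tissue was whole, fewer cells of a type and less RNA per cell cannot be told apart.

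Imprinted genes are transcribed mainly from the allele inherited from one parent. Their silence on the other allele traces back to DNA methylation set in the egg or the sperm at imprinting control regions, and many lie in clusters in which a single control region governs several genes, often through a long non-coding RNA. Many paternally expressed genes, such as the growth factor gene *Igf2*, promote growth of the fetus, whereas several maternally expressed genes, such as the cyclin-dependent kinase inhibitor gene *Cdkn1c* and the receptor adaptor gene *Grb10*, restrain it. A number of imprinted transcripts are abundant in fetal tissues and decline with age.

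The zinc finger protein ZFP57 maintains imprints by binding the methylated hexamer TGCCGC at control regions, some of which overlap a promoter. RefSeq promoter windows of 300 bases, 250 before to 50 after the start of a gene on GRCm38.p6, which is mm10, were available for 34 of the 42 genes. The hexamer, searched on both strands as TGCCGC and GCGGCA, was found in a window of 11 of the 34 genes (32.4%), against 3527 of the 27025 genes with a window (13.1%). Counted by window, the shares were 21.4% and 11.6%. The hexamer contains a CpG, and the windows of the imprinted genes are also richer in CpG, with a median of 15 against 7 over all windows, so that the hexamer's share was not separated from base composition. Of the 6 genes with a window used whose transcripts fell from 13.5 to 15.5 dpc, 4 hold the hexamer (*Calcr*, *Grb10*, *Mest* and *Plagl1*). *Asb4* and *Mkrn3* do not, and for *Impact* and *Peg10*, which also fell, no window was used. The windows richest in CpG are shown for 3 of the 4 (that of *Calcr* is not shown), for *Asb4* and for *Ddc*, which rose. They are written 5′ to 3′ on the strand of the gene, with the hexamer in capitals.
*Plagl1* promoter, chr10:13090582-13090881 (+ strand): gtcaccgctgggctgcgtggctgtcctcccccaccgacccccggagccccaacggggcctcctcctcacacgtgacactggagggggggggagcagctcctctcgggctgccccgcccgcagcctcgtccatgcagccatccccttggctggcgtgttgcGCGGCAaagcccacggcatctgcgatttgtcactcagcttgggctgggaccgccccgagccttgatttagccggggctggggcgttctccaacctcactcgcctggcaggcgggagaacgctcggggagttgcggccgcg
*Grb10* promoter, chr11:12037371-12037670 (- strand): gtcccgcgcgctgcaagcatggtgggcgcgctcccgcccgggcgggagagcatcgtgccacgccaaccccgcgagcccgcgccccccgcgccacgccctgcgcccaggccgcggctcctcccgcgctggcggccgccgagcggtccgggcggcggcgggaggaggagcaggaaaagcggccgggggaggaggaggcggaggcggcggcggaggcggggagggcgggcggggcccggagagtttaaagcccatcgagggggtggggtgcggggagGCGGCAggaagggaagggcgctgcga
*Mest* promoter, chr6:30737800-30738099 (+ strand): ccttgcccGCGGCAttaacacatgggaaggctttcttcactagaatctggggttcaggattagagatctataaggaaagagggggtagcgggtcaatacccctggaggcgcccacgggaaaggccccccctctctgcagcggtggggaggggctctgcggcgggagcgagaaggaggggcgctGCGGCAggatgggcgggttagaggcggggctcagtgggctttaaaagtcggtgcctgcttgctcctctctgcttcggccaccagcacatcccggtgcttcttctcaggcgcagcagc
*Asb4* promoter, chr6:5390160-5390459 (+ strand): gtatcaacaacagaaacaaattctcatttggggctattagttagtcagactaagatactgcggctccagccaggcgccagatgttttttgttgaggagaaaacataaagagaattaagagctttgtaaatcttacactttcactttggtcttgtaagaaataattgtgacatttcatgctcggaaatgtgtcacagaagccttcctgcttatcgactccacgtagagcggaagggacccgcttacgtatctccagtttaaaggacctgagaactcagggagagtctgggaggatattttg
*Ddc* promoter, chr11:11890359-11890658 (- strand): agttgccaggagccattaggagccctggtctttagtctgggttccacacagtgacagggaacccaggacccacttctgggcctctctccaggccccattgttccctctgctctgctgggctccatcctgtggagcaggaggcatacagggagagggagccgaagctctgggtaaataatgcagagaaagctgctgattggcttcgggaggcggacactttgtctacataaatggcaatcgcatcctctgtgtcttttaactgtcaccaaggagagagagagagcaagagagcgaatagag
The *Grb10* window holds 45 CpG dinucleotides, that of *Plagl1* 26, that of *Mest* 17, that of *Asb4* 8 and that of *Ddc* 5. *Mest* has 2 copies of the hexamer, and *Plagl1* and *Grb10* have 1 each. A match of 6 letters is a description of the window and not a binding site, and DNA methylation was not measured.

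The total counts were 12895732 to 16389237 at 13.5 dpc and 10546028 to 12491550 at 15.5 dpc. All 39 genes passed edgeR's filter on low counts. Normalised counts are counts scaled by TMM factors, which ranged from 0.847 to 1.08, and levels between genes are given as RPKM, the normalised count per kilobase of exon and per unit of library size. A gene was called when its adjusted p in edgeR's quasi-likelihood test was at or below 0.05. The 15.5 dpc samples were further apart than those of 13.5 dpc, and their differences ran with gene length. Over the 15578 genes tested, Spearman's rho between exon length and the deviation from the stage mean was -0.57 in 15.5 dpc replicate 1 and 0.59 in replicate 2, and lay between -0.24 and 0.34 in the other 4 samples (genes are not independent replicates). The part of this in the results was not tested. With the trend removed, 20 of the 39 genes moved by over 1.5 times or changed sign, and each of those values is given.

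Between 13.5 and 15.5 dpc, 8 imprinted genes fell, 2 rose and 29 were not called. The genes that fell were *Calcr*, *Grb10*, *Plagl1*, *Mkrn3*, *Peg10*, *Asb4*, *Impact* and *Mest*, and those that rose were *Kcnq1* and *Ddc*. The 8 that fell are 20.5% of the 39 genes, and 10.7% of all genes tested fell. The 2 that rose stand beside a background of 11.6%. The log2 fold change was below 0 in 27 of the 39 genes and in 7963 of the 15578 genes tested. The median was -0.22 over the 39 genes against -0.011 over all genes tested. For 18 of the 39 genes (46.2%) the 13.5 and 15.5 dpc samples held separate ranges, which is close to the background of 46.4%. Of these, 14 were lower (35.9% of the 39, against 23.6% of all genes tested) and 4 higher at 15.5 dpc (10.3%, against 22.8%).

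**Figure D1:**
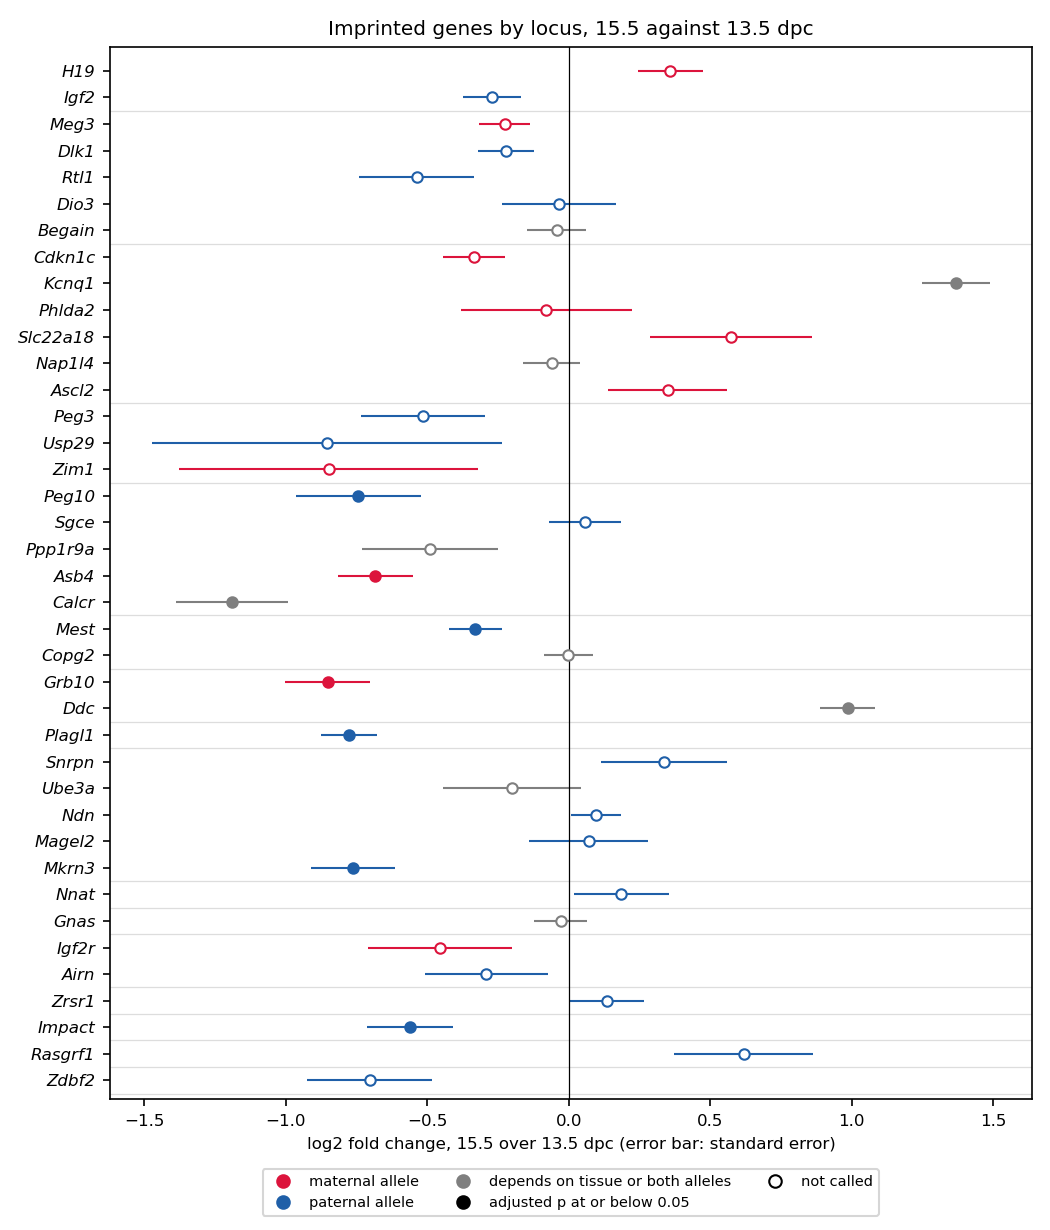
Log2 fold change (15.5 over 13.5 dpc, horizontal axis) of the 39 imprinted genes, grouped by locus between grey lines, with the standard error as bar and the known expressed allele as colour. Filled points are the 10 called genes; *Kcnq1* lies furthest to the right at 1.37 and *Calcr* furthest to the left at -1.19.

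By expressed allele, 5 of the 20 paternally expressed genes with values fell (25.0%) and 0 rose, with a median log2 fold change of -0.28. Among the 10 maternally expressed genes 2 fell, 0 rose, and the median was also -0.28. Of the genes not called higher by edgeR, 1 of each allele was higher at an unadjusted p under 0.05, *Rasgrf1* and *H19*. DESeq2 called 0 paternally and 1 maternally expressed gene higher, and 15.2% of all genes. The other 9 genes, whose expressed allele depends on the tissue or which are often read from both alleles, had 1 that fell and the 2 that rose, with a median of -0.042. With these 9 assigned to the allele most often reported for them, the medians were -0.20 for the maternal and -0.25 for the paternal genes. With the gene length trend removed the medians were -0.32 and -0.18. The counts of calls rest on single samples. Without 15.5 dpc replicate 2, 11 paternally and 6 maternally expressed genes were called (48.0% of all genes were), and without 13.5 dpc replicate 1 or 3 or 15.5 dpc replicate 3 it was 1 of each (7.83%, 8.88% and 9.05% of all genes). The difference between the alleles was not tested.

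Imprinted transcripts were among the most abundant of these pancreata. The *H19* level ranked 3rd of all genes tested at 13.5 dpc, with an RPKM of 3442 ± 63.8 (SD, n = 3), and 6th at 15.5 dpc, with 4414 ± 491. In the order of levels at 13.5 dpc it was followed by *Igf2* at 713 ± 22.4, *Cdkn1c* at 676, *Dlk1* at 505, *Mest* at 471, *Gnas* at 266, *Grb10* at 203, *Plagl1* at 148, *Nnat* at 131 and *Nap1l4* at 105 RPKM. At 15.5 dpc *Grb10* and *Plagl1* were at 112 and 86.5 RPKM, and the level of *Nnat* (149) lay above both. The lowest levels were those of *Calcr*, *Rasgrf1* and *Usp29*, all below 1 RPKM at 13.5 dpc. The remaining genes lay between these groups.

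**Figure D2:**
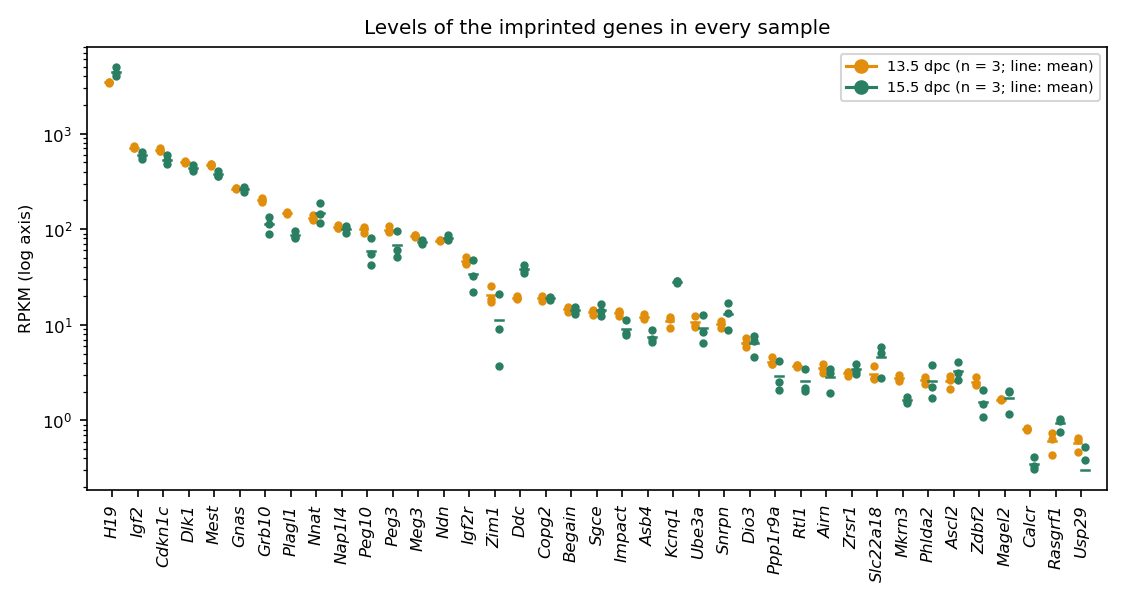
RPKM (log axis) of the 39 imprinted genes in each of the 6 samples, ordered by the mean at 13.5 dpc, with lines at the stage means. Levels run from 3442 for *H19* down to below 1 for 3 genes at 13.5 dpc; the *Usp29* count of 0 in 15.5 dpc replicate 1 is not drawn on the log axis but enters its mean.

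Together, the 39 genes held 3.17%, 3.13% and 3.21% of all counts in the 13.5 dpc samples and 2.42%, 2.73% and 2.57% in the 15.5 dpc samples. The largest half-width of the exact 95% binomial intervals was 0.00956 percentage points, which covers counting error only. The means were 3.17% ± 0.039 and 2.57% ± 0.158 (SD, n = 3), and the stages did not overlap. The paternally expressed genes went from 1.34% ± 0.022 to 0.918% ± 0.126, and the maternally expressed genes from 1.45% ± 0.024 to 1.32% ± 0.024. Without *H19*, the maternally expressed genes held 0.567% ± 0.015 and 0.353% ± 0.051. *H19* alone went the other way, from 0.879% ± 0.015 to 0.967% ± 0.028. With genes above 1% of the counts taken out of the totals, the difference of *H19* was 0.137 percentage points in place of 0.0882, and that of the maternally expressed genes -0.061 in place of -0.126. None of these 6 shares, that of *Igf2* included, overlapped between the stages, each with an exact permutation p of 0.1 (two-sided), the smallest that 3 samples against 3 allow. A share also depends on the other genes of a sample. With library size only, the median log2 fold change was -0.22 over all genes tested and -0.44 over the 39 genes. The 7 acinar markers, enzyme and transcription factor genes of the exocrine cells, all rose, from summed levels of 3892 to 4735 RPKM to levels of 28280 to 70520.

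*H19* and *Igf2* are neighbours on chromosome 7, from 142575529 to 142578143 and from 142650766 to 142666816 of mm10, and share enhancers, which act on *H19* on the maternal and on *Igf2* on the paternal chromosome. *H19* is a non-coding RNA, and *Igf2* encodes the main growth factor of the fetus. *H19* had 104900, 101100 and 103600 normalised counts at 13.5 dpc and 148600, 120000 and 128200 at 15.5 dpc. Every 15.5 dpc value exceeded every 13.5 dpc value, and replicate 1 was the highest. The log2 fold change was 0.36 (standard error 0.11, adjusted p = 0.062, edgeR), short of the threshold. *H19* was called under 4 of 15 alternatives, among them DESeq2 (0.38, adjusted p = 0.012) and the removed length trend (0.27, adjusted p = 0.023). By edgeR it was not called with library size only (0.14, adjusted p = 0.16) or with the replicate number as a block (0.35, adjusted p = 0.12). *Igf2* had 50590, 50650 and 53430 normalised counts at 13.5 dpc against 39390, 46580 and 42150 at 15.5 dpc. Here all 15.5 dpc samples lay below those of 13.5 dpc, and replicate 1 was the lowest. The log2 fold change of -0.27 was not called (standard error 0.10, adjusted p = 0.097, edgeR), and with the length trend removed it was -0.12 (adjusted p = 0.20).
The ratio of *Igf2* to *H19* within a sample does not depend on the scaling between samples. In RPKM it was 0.20, 0.208 and 0.214 at 13.5 dpc and 0.110, 0.161 and 0.136 at 15.5 dpc, a log2 difference of -0.63. The samples did not overlap (exact permutation test, two-sided, p = 0.1, adjusted over 10 ratios 0.33). Leaving out each sample in turn moved the log2 difference between -0.76 and -0.48. With the length trend removed it was -0.39.

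*Grb10* and *Ddc* lie side by side on chromosome 11, from 11930508 to 12038683 and from 11814101 to 11898144, and moved in opposite directions. *Grb10* encodes an adaptor that binds the insulin and IGF1 receptors and restrains their signals. It had 23040, 22340 and 24470 normalised counts at 13.5 dpc and 10320, 15370 and 13000 at 15.5 dpc. No sample overlapped, and the 15.5 dpc samples were spread more widely, with replicate 1 lowest and replicate 2 highest. The log2 fold change was -0.85 (standard error 0.15, adjusted p = 0.0086, edgeR) and -0.60 with the length trend removed (adjusted p = 0.00049). *Ddc* encodes aromatic amino acid decarboxylase, which makes dopamine and serotonin. It had 1056, 1125 and 1085 normalised counts at 13.5 dpc and 2362, 1985 and 2128 at 15.5 dpc, every 15.5 dpc sample being above every 13.5 dpc sample. The log2 fold change was 0.99 (standard error 0.10, adjusted p = 0.0010, edgeR). The ratio of *Grb10* to *Ddc* in RPKM went from between 9.75 and 11.1 at 13.5 dpc to between 2.15 and 3.80 at 15.5 dpc, the largest difference of the 10 ratios computed (log2 difference -1.85, exact permutation p = 0.1). Both genes were called under all 15 alternatives. *Grb10* is the gene whose promoter window, shown above, holds the most CpG dinucleotides of the 5 printed, and *Ddc* the fewest.

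*Plagl1*, on chromosome 10 from 13090691 to 13131694, encodes a zinc finger transcription factor that can arrest the cell cycle and is read from the paternal allele. It had 14030, 13710 and 13180 normalised counts at 13.5 dpc and 7599, 8773 and 7525 at 15.5 dpc. The stages were far apart, with an SD of 430 and 700 around means of 13640 and 7966. The log2 fold change was -0.78 (standard error 0.10, adjusted p = 0.0026, edgeR), and it was called under all 15 alternatives. *Mest*, on chromosome 6 from 30723547 to 30748455, encodes an enzyme-like protein of the endoplasmic reticulum that is abundant in fetal mesoderm. It had 23800, 23710 and 22760 normalised counts at 13.5 dpc and 17780, 20000 and 18130 at 15.5 dpc. These did not overlap, but the change was the smallest of the called genes (log2 fold change -0.33, standard error 0.094, adjusted p = 0.043, edgeR). The call was lost with RLE size factors (adjusted p = 0.0503), with the replicate number as a block (adjusted p = 0.11) and on omission of any 1 of the 13.5 dpc samples or of 15.5 dpc replicate 3 (0.13 to 0.17). *Copg2*, which overlaps the end of *Mest* on the opposite strand over 20.1% of its exon bases and encodes a coat protein of transport vesicles, had 1073 ± 55.0 and 1071 ± 28.5 normalised counts (SD, n = 3). Its log2 fold change was -0.0020 (standard error 0.087), with a sign that turned under 7 of 15 alternatives. The ratio of *Mest* to *Copg2* went from 24.1, 25.0 and 25.5 to 18.5, 21.1 and 19.8, without overlap (log2 difference -0.33, exact permutation p = 0.1).

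In the *Kcnq1* domain on chromosome 7, 1 of the 6 genes with values was called. *Kcnq1*, from 143107254 to 143427042, encodes a voltage-gated potassium channel and is known to lose its imprint in the course of development. It had 355, 437 and 466 normalised counts at 13.5 dpc and 1099, 1051 and 1104 at 15.5 dpc. The stages were widely separated, and the log2 fold change, 1.37, was the highest of the 39 genes (standard error 0.12, adjusted p = 0.00080, edgeR). It was called under all 15 alternatives. *Cdkn1c*, from 143458350 to 143461050 and read from the maternal allele, encodes the cell cycle inhibitor p57. It had 17320, 15970 and 16170 normalised counts at 13.5 dpc and 14670, 11750 and 12800 at 15.5 dpc. All 15.5 dpc samples lay lower, and the log2 fold change of -0.34 missed the threshold (standard error 0.11, adjusted p = 0.067, edgeR). It was called under 6 of 15 alternatives, the removed length trend among them (-0.48, adjusted p = 0.0015). For the transporter gene *Slc22a18* (log2 fold change 0.57), the transcription factor gene *Ascl2* (0.35), the placental growth regulator *Phlda2* (-0.079) and the histone chaperone gene *Nap1l4* (-0.060) the stages overlapped, and adjusted p was 0.18 to 0.87. Without 15.5 dpc replicate 2, *Slc22a18* was called (0.86, adjusted p = 0.0068). Without replicate 1 it was at 0.35 (adjusted p = 0.36) and *Ascl2* at 0.17. *Nap1l4*, the most abundant of these 4, had 3210, 2959 and 2940 normalised counts against 3153, 2646 and 2939. *Slc22a18*, *Ascl2* and *Phlda2* were at low levels of 2.56 to 3.04 RPKM at 13.5 dpc.

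In the *Peg10*-*Sgce* domain on chromosome 6, 3 of 5 genes fell. *Calcr*, the calcitonin receptor gene, fell furthest of the 39 genes but from a low level. It had 39.2, 40.3 and 40.9 normalised counts at 13.5 dpc and 15.2, 20.5 and 16.4 at 15.5 dpc, without overlap (log2 fold change -1.19, standard error 0.20, adjusted p = 0.0066, edgeR). These values rest on 43, 47 and 57 against 11, 20 and 13 raw counts. *Asb4*, which encodes an ankyrin repeat protein of ubiquitin ligases and is read from the maternal allele, had 638, 566 and 601 normalised counts at 13.5 dpc and 325, 441 and 355 at 15.5 dpc. No sample overlapped (log2 fold change -0.68, standard error 0.13, adjusted p = 0.012, edgeR), and the call was lost without 13.5 dpc replicate 1 or 3 or 15.5 dpc replicate 3 (adjusted p 0.057 to 0.067). *Peg10*, derived from a retrotransposon and read from the paternal allele, had 7740, 8515 and 8977 normalised counts at 13.5 dpc and 3577, 6826 and 4665 at 15.5 dpc. The 15.5 dpc samples spread widely below those of 13.5 dpc, and the call was borderline (log2 fold change -0.74, standard error 0.22, adjusted p = 0.0499, edgeR). It was lost under 6 of 15 alternatives, 4 of them omissions of a sample (adjusted p 0.11 to 0.16). *Sgce*, whose start lies beside that of *Peg10* on the other strand and which encodes a sarcoglycan, had 533 ± 34.4 and 555 ± 79.5 normalised counts (log2 fold change 0.057, adjusted p = 0.76). The ratio of *Peg10* to *Sgce* overlapped between the stages (log2 difference -0.84, exact permutation p = 0.2). *Ppp1r9a*, for the actin-binding protein neurabin, was not called (-0.49, adjusted p = 0.17; -0.17 with the length trend removed), but was without 15.5 dpc replicate 2 (-0.82, adjusted p = 0.0017). Without replicate 1 it was at -0.29.

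None of the 5 genes of the *Dlk1*-*Dio3* domain on chromosome 12 was called by edgeR on all 6 samples with TMM factors or by DESeq2, with edgeR's adjusted p at 0.095 to 0.91, and 2 had an unadjusted p under 0.05. *Dlk1*, a membrane protein related to Notch ligands and read from the paternal allele, had 35900, 35520 and 36960 normalised counts at 13.5 dpc and 33620, 28930 and 30330 at 15.5 dpc. The maternally expressed long non-coding RNA *Meg3* had 18910, 19870 and 20050 against 16930, 17460 and 15920. Both sets of samples were separate with 15.5 dpc lower, and the log2 fold changes were -0.22 (standard error 0.099) and -0.23 (standard error 0.090). With the length trend removed, *Meg3*, which has 18089 exon bases, stood at 0.24 and *Dlk1* at -0.060, neither called. With library size only, edgeR called both (-0.44 each, adjusted p = 0.016 and 0.0054), and it called *Dlk1* without 15.5 dpc replicate 1 (-0.28, adjusted p = 0.022). Their ratio in RPKM was 5.72 to 6.07 at 13.5 dpc and 5.30 to 6.35 at 15.5 dpc, with a log2 difference of 0.00063 (SD 0.044 and 0.14). With the length trend removed, the log2 difference of this ratio was -0.28. The retrotransposon-derived *Rtl1* had 292, 303 and 305 normalised counts against 176, 278 and 162, without overlap (log2 fold change -0.54, adjusted p = 0.095). It was called without 15.5 dpc replicate 2 (-0.81, adjusted p = 0.0010). *Dio3*, which inactivates thyroid hormone, and *Begain* overlapped between the stages, with log2 fold changes of -0.034 and -0.042.

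In the *Snrpn*-*Ndn* domain on chromosome 7, *Mkrn3* was called among 5 genes. *Mkrn3*, from 62417593 to 62420139, encodes a makorin RING finger protein and is read from the paternal allele. It had 95.7, 82.3 and 88.4 normalised counts at 13.5 dpc and 48.4, 56.2 and 51.6 at 15.5 dpc, without overlap (log2 fold change -0.76, standard error 0.15, adjusted p = 0.012, edgeR). Its call was lost on the same 3 omissions as that of *Asb4* (adjusted p 0.056 to 0.068). Its neighbours *Ndn* and *Magel2*, which encode proteins of the MAGE family, had log2 fold changes of 0.097 and 0.070, with overlapping stages, and leaving out each sample moved that of *Ndn* between 0.051 and 0.15. *Ndn* had the highest level of the domain, 76.2 RPKM at 13.5 dpc, with 1591 ± 15.7 and 1702 ± 108 normalised counts (SD, n = 3). *Snrpn*, for a protein of the spliceosome, and the ubiquitin ligase gene *Ube3a* were not called (0.34 and -0.20, adjusted p = 0.29 and 0.56). Without 15.5 dpc replicate 2 both were (0.57 and -0.50, adjusted p = 0.0099 and 0.027), and without replicate 1 they were at 0.10 and 0.0034 (adjusted p = 0.69 and 0.99). The *Snrpn* row shares its start with *Snurf*, so the values may hold transcripts of both.
The 3 genes of the *Peg3* domain, also on chromosome 7, varied widely at 15.5 dpc, and the coefficients of variation of *Usp29* (89.9%) and *Zim1* (79.8%) were the highest of the 39 genes. *Zim1*, a zinc finger gene read from the maternal allele, had 798, 851 and 1174 normalised counts at 13.5 dpc and 169, 976 and 412 at 15.5 dpc. *Peg3*, the paternally expressed zinc finger gene beside it, had 16020, 15770 and 18100 against 8611, 15990 and 10320. In both genes 15.5 dpc replicate 1 was lowest and replicate 2 lay within or beside the 13.5 dpc samples. The log2 fold changes were -0.85 (standard error 0.53) and -0.51 (standard error 0.22), neither called. With the length trend removed, *Peg3* was at -0.20 (adjusted p = 0.073). On omission of 15.5 dpc replicate 2, *Zim1* and *Peg3* were both called (-1.67 and -0.80, adjusted p = 0.0039 and 0.0012), whereas without replicate 1 they were at -0.43 and -0.34 (adjusted p = 0.33 and 0.16). *Usp29*, a ubiquitin peptidase gene of which the table covers 1 exon, had 98 raw counts in all and none in 15.5 dpc replicate 1, and was not called (-0.85, standard error 0.62). It was at -0.35 without that sample and at -1.53 without replicate 2, not called in either.

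Among the genes at other loci, *Impact*, on chromosome 18, fell. It encodes an inhibitor of the amino acid sensor GCN2 and had 589, 610 and 543 normalised counts at 13.5 dpc and 338, 486 and 354 at 15.5 dpc, without overlap (log2 fold change -0.56, standard error 0.15, adjusted p = 0.038, edgeR). The call was lost on omission of any 1 of the 13.5 dpc samples or of 15.5 dpc replicate 3 (adjusted p 0.098 to 0.14). *Zdbf2*, a zinc finger gene, had 386, 373 and 456 against 176, 331 and 236. It did not overlap either, and was not called (-0.70, standard error 0.22, adjusted p = 0.058), but was under 7 of 15 alternatives, among them the removed length trend (-0.40, adjusted p = 0.010). *Rasgrf1*, for an activator of Ras, was at a low level with 36.2 ± 9.58 and 55.7 ± 9.13 normalised counts (log2 fold change 0.62, adjusted p = 0.11). *Gnas*, which encodes the stimulatory G protein subunit and shares 22.0% of its exon bases with genes on the other strand, had 37800, 37950 and 37210 normalised counts at 13.5 dpc and 39000, 34550 and 37270 at 15.5 dpc, with overlap. Its log2 fold change was -0.028 (standard error 0.094), and 0.33 with the length trend removed. *Nnat*, a small membrane protein gene, had 3238, 2970 and 2873 against 4307, 2718 and 3313 (log2 fold change 0.19, adjusted p = 0.43; without 15.5 dpc replicate 2 it was 0.34, adjusted p = 0.046), and the splicing factor-like gene *Zrsr1* 177 ± 9.30 and 195 ± 25.0 (0.14, adjusted p = 0.47; 0.032 to 0.21 with each sample left out). *Igf2r*, whose product clears IGF2 from the cell surface, had 5316, 5152 and 6101 normalised counts at 13.5 dpc and 2613, 5648 and 3827 at 15.5 dpc. Replicate 2 lay among the 13.5 dpc samples, and the log2 fold change of -0.45 was not called (standard error 0.25, adjusted p = 0.22), and with the length trend removed it was -0.22. Without 15.5 dpc replicate 2 it was called (-0.76, adjusted p = 0.0060), and without replicate 1 the value was -0.22. Its antisense RNA *Airn* was not called either (-0.29, adjusted p = 0.35), and it was at -0.46 without 15.5 dpc replicate 2 and at -0.079 without replicate 3.

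**Figure D3:**
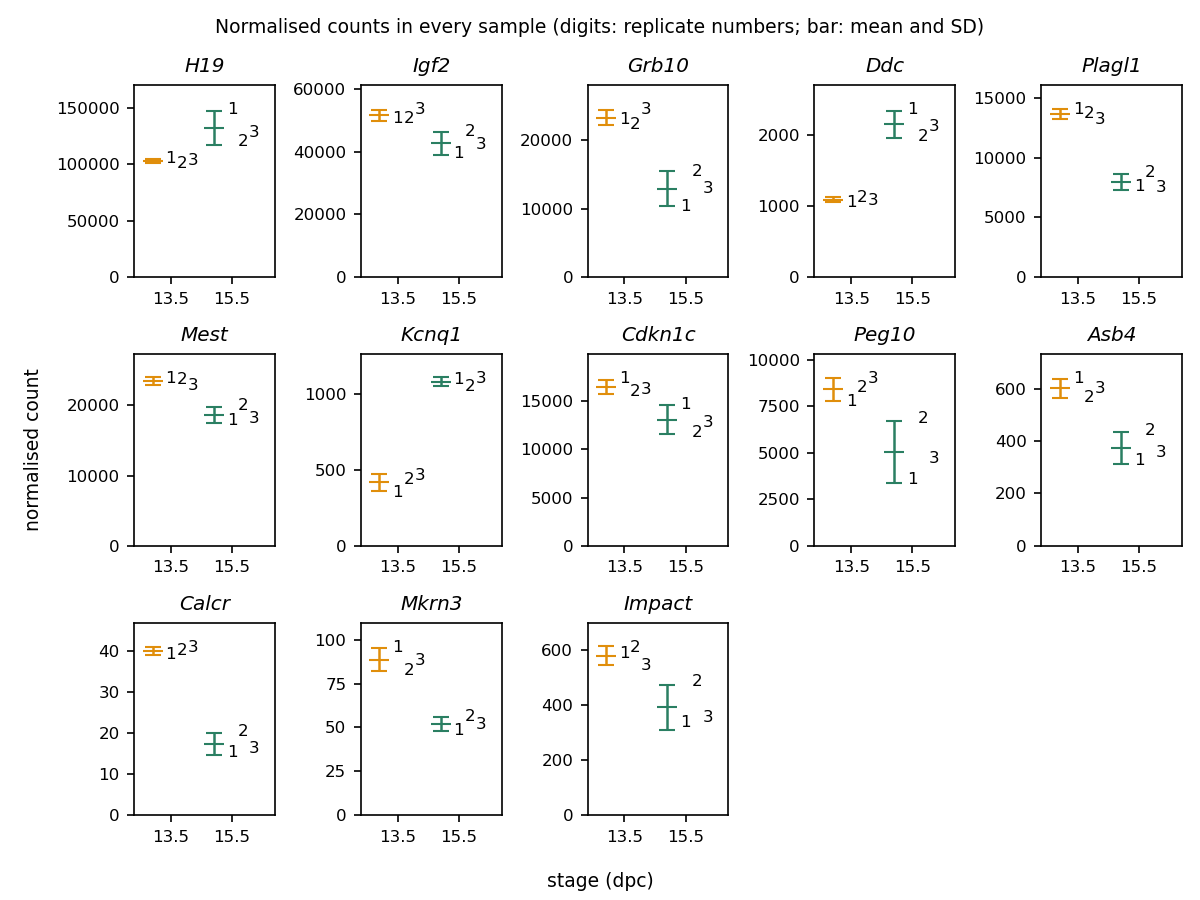
Normalised counts (vertical axes, from 0) at 13.5 and 15.5 dpc for the 10 called genes and for *H19*, *Igf2* and *Cdkn1c*, each digit being the sample with that replicate number and each bar the mean and SD of 3 samples. In all 13 panels the samples of the stages do not overlap, with 15.5 dpc above 13.5 dpc for *H19*, *Ddc* and *Kcnq1* and below it for the other 10.

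Of the 13 ratios set between genes of a locus or pathway, 10 could be computed, and 3 did not overlap between the stages, *Igf2* to *H19*, *Mest* to *Copg2* and *Grb10* to *Ddc*. The other 7 overlapped. *Peg3* to *Zim1* was 13.9 in 15.5 dpc replicate 1 and 4.48 in replicate 2, against 4.22 to 5.49 at 13.5 dpc. *Igf2* to *Igf2r* was 14.4 to 16.2 at 13.5 dpc and 13.6 to 24.9 at 15.5 dpc (log2 difference 0.25, exact permutation p = 0.5; 0.12 with the length trend removed). For *Igf2r* to *Airn* the log2 difference was -0.19, and it turned to 0.059 with the length trend removed and to 0.18 without 15.5 dpc replicate 1. For *Ndn* to *Snrpn* it was -0.20, and -0.032 without that sample.

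**Figure D4:**
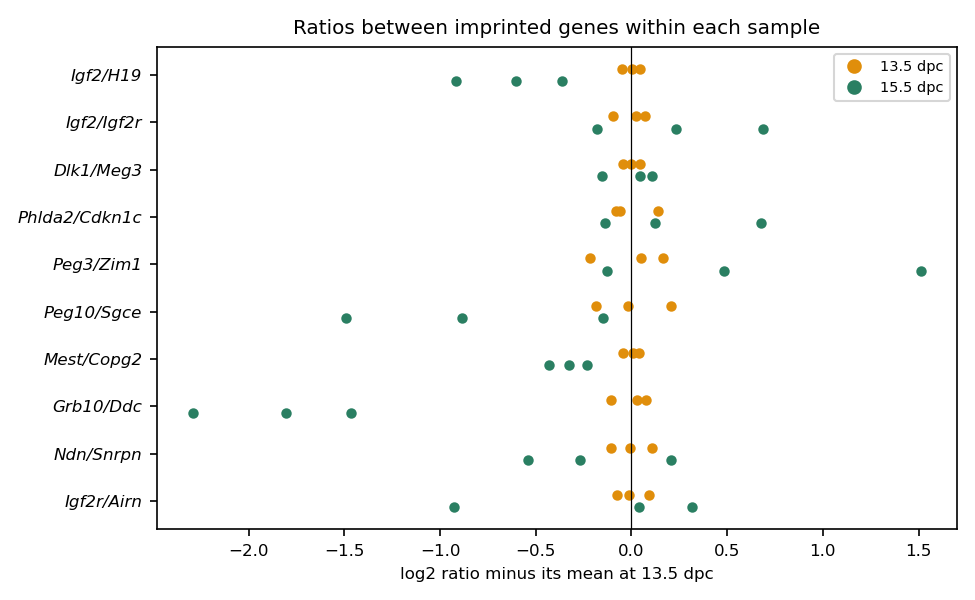
Log2 ratio of the RPKM of 2 genes in each sample, less its mean at 13.5 dpc (horizontal axis), for 10 pairs. The 15.5 dpc samples lie apart from the 13.5 dpc samples for *Igf2*/*H19*, *Mest*/*Copg2* and *Grb10*/*Ddc*, whose mean differences are -0.63, -0.33 and -1.85.

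The wider spread of the 15.5 dpc samples was not particular to the imprinted genes. The coefficient of variation was higher at 15.5 than at 13.5 dpc for 35 of the 39 (89.7%), and for 84.4% of all genes tested. Replicate 1 was the lowest and replicate 2 the highest of the 15.5 dpc samples for 15 of the 39, and for 36.0% of all genes tested. Across the 39 genes, the log2 fold change ran with exon length (Spearman rho = -0.39, across genes), as it did over all genes tested (rho = -0.36). With the trend removed, rho over the 39 was -0.062. With the trend removed, 10 of the genes were called lower (25.6%, against 14.7% of all genes tested) and 4 higher (10.3%, against 18.1%). The 14 called genes are 35.9% of the 39, against 32.8% of all genes. These include all 10 called with the trend in place, and in addition *Cdkn1c* and *Zdbf2* as lower and *H19* and *Rasgrf1* as higher. Among the genes not called either way, the log2 fold changes with the trend removed were 0.23 for *Zrsr1*, 0.21 for *Snrpn*, 0.16 for *Ascl2* and for *Magel2* and 0.017 for *Nnat*. They were -0.077 for *Ndn*, -0.096 for *Ube3a*, -0.089 for *Begain*, -0.16 for *Nap1l4*, -0.17 for *Dio3* and -0.42 for *Phlda2*. When 15.5 dpc replicate 2 was left out, 22 of the 39 genes (56.4%) were called, as were 48.0% of all genes tested. Of the 22, 16 were lower (41.0% of the 39, against 23.3% of all genes) and 6 higher (15.4%, against 24.7%). The 12 genes added by the omission were *Rtl1*, *Peg3*, *Zim1*, *Ppp1r9a*, *Igf2r*, *Slc22a18*, *Snrpn*, *Ube3a* and *Nnat*, with *Zdbf2* (-0.96, adjusted p = 0.0020), *H19* (0.44, 0.0078) and *Igf2* (-0.32, 0.020). On omission of 13.5 dpc replicate 1 or 3, or of 15.5 dpc replicate 3, only *Kcnq1*, *Ddc*, *Calcr*, *Grb10* and *Plagl1* were (12.8%, against 7.83%, 8.88% and 9.05% of all genes).

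**Figure D5:**
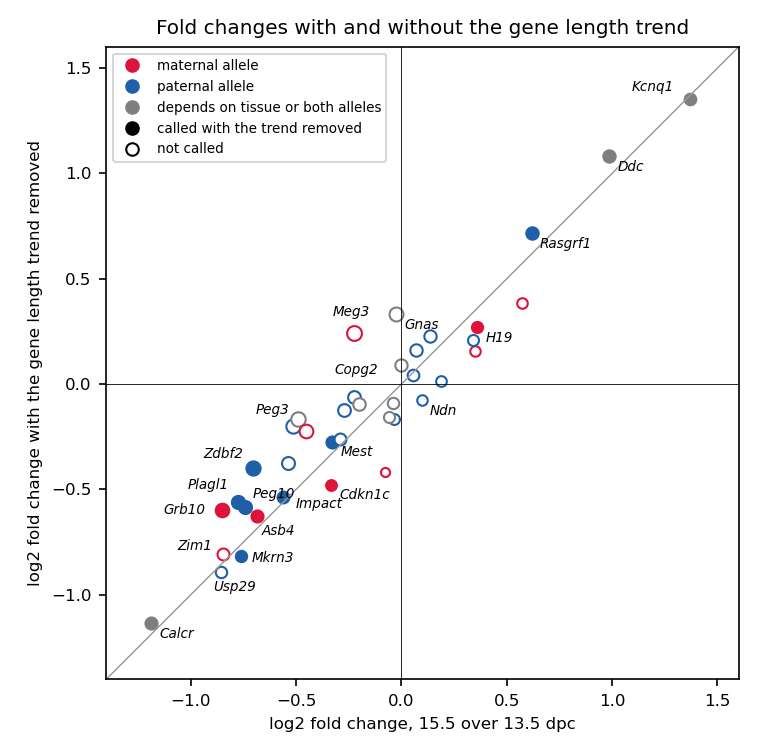
Log2 fold change of each imprinted gene (15.5 over 13.5 dpc) as tested, on the horizontal axis, against its value with the gene length trend of each library removed, on the vertical axis; colour is the expressed allele and point size grows with exon length. Points on the grey line have equal values, filled points are the 14 genes called with the trend removed, *Meg3*, *Gnas* and *Copg2* cross from below to above 0, and *Ndn* crosses the other way.

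Markers of other cell types also differed between the stages. For comparison, 10.7% of all genes tested fell, 11.6% rose and 22.3% were called. Of 9 mesenchyme markers 4 fell (44.4%), namely *Pdgfra*, *Nkx3-2*, *Barx1* and *Twist1*. By edgeR 0 rose, with 0 also at an unadjusted p under 0.05 and with DESeq2. Their summed levels were 1511 to 1656 RPKM at 13.5 dpc and 1135 to 1506 at 15.5 dpc. Of 7 epithelial markers 4 rose and 1 fell (71.4% called), with sums of 789 to 829 and 1072 to 1542 RPKM. Smooth muscle markers rose in 3 of 5, with 35.4 to 40.2 and 64.6 to 88.8 RPKM. Of 7 neural and glial markers 3 fell (42.9%). Of 8 endocrine markers (37.5% called) *Ins2* rose (log2 fold change 2.64), and *Chgb* and *Insm1* fell (-0.63 and -0.36). Their sums were 1279 to 1391 and 1411 to 2472 RPKM. Of 5 immune markers *Csf1r* and *Adgre1* fell (40.0%), with sums of 41.8 to 44.8 and 35.7 to 52.4 RPKM. Of 3 mesothelial markers *Msln* rose and *Wt1* fell (66.7% called), with sums of 37.4 to 38.9 and 33.6 to 36.9 RPKM. Of 6 endothelial and 6 proliferation markers 0 were called by edgeR or DESeq2 and 0 had an unadjusted p under 0.05, with sums of 91.2 to 100.2 and 85.9 to 107.5 RPKM for the endothelium. The sum of 5 erythroid markers was 1273 to 1578 RPKM at 13.5 dpc and 68.6 to 90.2 at 15.5 dpc, and that of 4 liver markers was 40.0 to 61.6 and 25.8 to 37.1. The part of these in the values of the imprinted genes was not tested.

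A further 33 genes known as imprinted were listed beside these, of which 29 were tested. They were not sorted by expressed allele or by tissue, and their imprinting in the pancreas was not measured. Of the 29 tested, 6 fell (20.7%, against 10.7% of all genes), 4 rose (against 11.6% of all genes) and 19 were not called. The median log2 fold change was -0.19. For 13 of the 29 (44.8%) the stages did not overlap, against 46.4% of all genes. The 10 calls became 3 without 13.5 dpc replicate 1 or 3 or 15.5 dpc replicate 3 (7.83%, 8.88% and 9.05% of all genes). They became 4 without 13.5 dpc replicate 2. The gene that fell furthest was *Adam23*, a membrane protein of the metalloprotease family that lies near *Zdbf2*, from 94.5 ± 2.48 to 37.8 ± 7.44 normalised counts (log2 fold change -1.31, standard error 0.18, adjusted p = 0.0031, edgeR). *Gatm*, which encodes the first enzyme of creatine synthesis, rose furthest, from 179 ± 6.04 to 844 ± 148 (log2 fold change 2.23, standard error 0.15, adjusted p = 0.00036, edgeR). *Tfpi2*, *Slc38a4*, *Peg12*, *Inpp5f* and *Osbpl5* also fell, and *H13*, *Dcn* and *Pon2* also rose.
Of 10 genes that maintain imprints or the silence of their methylated allele, 9 were tested. All 9 had a log2 fold change below 0, as had 7963 of the 15578 genes tested. Of the 9, 1 was called (11.1%, against 10.7% of all genes lower). This was *Zfp57*, whose protein binds the hexamer shown above, with 772 ± 53.5 normalised counts at 13.5 dpc and 455 ± 80.1 at 15.5 dpc (SD, n = 3; log2 fold change -0.76, standard error 0.14, adjusted p = 0.010, edgeR). Its call was lost on omission of 13.5 dpc replicate 1 or of 15.5 dpc replicate 3. The maintenance methyltransferase gene *Dnmt1* and *Trim28*, the co-repressor that ZFP57 recruits, did not overlap between the stages and were not called (-0.39 and -0.23, adjusted p = 0.087 and 0.099). *Zfp445*, with the same role as *Zfp57*, varied widely, with 341 ± 290 normalised counts at 15.5 dpc.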

How the data were processed

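Whole wt pancreata of 2 stages were sequenced, with 3 pooled samples per stage. The authors prepared strand-specific poly(A) libraries, aligned single-end reads to mm10 with GSNAP, used featureCounts 1.4.6 to count unique alignments over the genes of Ensembl 69, and deposited raw counts without normalisation, with the exon length of each gene. The strand setting of the count is not given in the sources used here. By the exon coordinates of the table, 0 of 296 genes lying wholly within same-strand exons had 10 counts or more, whereas 28 of 147 within opposite-strand exons did, so counts were read as strand-specific. Transcripts without a poly(A) tail are poorly captured, and with total counts of 10546028 to 16389237 a gene with few counts has a wide error. All 6 columns of per-sample values were used.

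The genes and lists were chosen with earlier results of these data known. Symbols were matched by Ensembl identifier to GENCODE M21 and RefSeq (35449 of 37224 identifiers), and *Snrpn* by its coordinates. Counts were tested with edgeR 4.0.16 (filterByExpr, TMM factors, quasi-likelihood test without covariates, Benjamini-Hochberg adjustment over 15578 genes) in R 4.3.3. The standard error is the size of the log2 fold change over the root of F. RPKM uses the TMM-scaled library size and the deposited exon length. Ratios and shares were tested with exact permutation over samples in Python 3.11.15 with SciPy 1.17.1. Every gene of the list is accounted for. Values per sample are given for called genes without overlap and for the 10 of highest RPKM, and also, chosen after their values were seen, for *Meg3*, *Rtl1*, *Zim1*, *Peg3*, *Zdbf2* and *Igf2r*. Of the other lists, the called genes of largest and smallest change were to be named; the other names were added after their values were seen.

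Alternatives were other normalisations, DESeq2 1.42.0, other filters, genes above 1% of the counts taken out, removal of each library's lowess trend over gene length (span 0.5), the replicate number as a block, the study's thresholds and each sample left out in turn. On simulated data, 200 of 200 genes changed by a log2 fold of 2 were recovered among 15401, with 5 false calls. With a simulated length trend, 200 of 200 were recovered among 15433, with 0 false calls with the trend kept and 10 with it removed. The recovery of smaller log2 folds, such as those of the 39 genes (-1.19 to 1.37), was not tested. Transcripts of *Mest* and *Copg2* share 863 windows of 50 bases in GENCODE M21, on opposite strands.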

Additional observations from a re-analysis of the deposited data

How the results depend on the processing

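Of the 584 comparisons of the 39 genes with an alternative, 502 kept their direction and side of the threshold, 34 gained and 22 lost a call, and 26 turned in sign. *Kcnq1*, *Ddc*, *Calcr*, *Grb10* and *Plagl1* were called under each of the 15 alternatives that kept the threshold. With library size only, which moves the median of all genes to -0.22, 17 of the 39 genes were called (43.6%, against 26.2% of all genes; *Igf2*, *Meg3*, *Dlk1*, *Cdkn1c*, *Nap1l4*, *Gnas* and *Zdbf2* were added), 15 of them lower (38.5%, against 18.9%), the maternal and paternal medians were -0.50 and -0.49, and 3 imprint maintenance genes were called. With the gene length trend removed, 4 of the 39 were called higher (10.3%, against 18.1% of all genes). In that setting 2 of 9 imprint maintenance genes and 4 of 10 growth genes were called, against 32.8% of all genes. The log2 differences of *Dlk1* to *Meg3* and *Igf2r* to *Airn* turned to -0.28 and 0.059. With the study's thresholds (adjusted p at or below 0.1, over 100 normalised counts, fold below 0.6 or above 1.6, all biotypes) 1539 genes were called, and 5 of the 39, *Peg10* but not *Calcr* among them. With genes above 1% of the counts taken out, the difference of the maternal share was -0.061 percentage points. The replicate numbers share no origin and their correlations were 0.22, -0.22 and 0.038, so that the samples were not paired. With the number as a block, 2676 genes (17.2%) and 9 of the 39 (23.1%) were called, and *Mest* lost its call; the counts were 7 for the other imprinted, 1 for the imprint maintenance and 2 for the growth genes. The causes were not tested.

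Signs turned, none of them called, with library size only for *Sgce* (-0.17), *Ndn* (-0.12), *Magel2* (-0.13), *Nnat* (-0.044) and *Zrsr1* (-0.083), with the length trend removed for *Meg3* (0.24), *Gnas* (0.33), *Ndn* (-0.077) and *Copg2* (0.089), and for *Copg2* also with RLE size factors (0.0144) and DESeq2 (0.0147). Leaving out each sample in turn moved across 0 the log2 fold changes of *Copg2* (-0.042 to 0.032), *Dio3* (-0.19 to 0.17), *Begain* (-0.11 to 0.025), *Phlda2* (-0.44 to 0.18), *Nap1l4* (-0.12 to 0.018), *Sgce* (-0.054 to 0.17), *Ube3a* (-0.50 to 0.0034), *Magel2* (-0.046 to 0.28), *Nnat* (-0.0044 to 0.34) and *Gnas* (-0.067 to 0.032). It gave 1235 to 7620 called genes (7.83% to 48.0% of those tested) and 5 to 22 of the 39. Of the 39, 3 to 16 were lower (7.69% to 41.0%, against 3.29% to 23.3% of all genes) and 2 to 6 higher (5.13% to 15.4%, against 4.54% to 24.7%). The called counts were 3 to 14 for the other imprinted, 0 to 6 for the imprint maintenance and 1 to 7 for the growth genes. Each highest count came without 15.5 dpc replicate 2. The allele medians ranged from -0.33 to -0.25 (maternal) and -0.35 to -0.23 (paternal), and the share differences from -0.68 to -0.52 points (all), -0.14 to -0.12 (maternal) and -0.49 to -0.36 (paternal). The log2 ratio differences ranged from -0.76 to -0.48 for *Igf2* to *H19*, 0.027 to 0.46 for *Igf2* to *Igf2r*, -0.053 to 0.078 for *Dlk1* to *Meg3*, -0.0063 to 0.40 for *Phlda2* to *Cdkn1c*, 0.18 to 1.00 for *Peg3* to *Zim1*, -1.19 to -0.52 for *Peg10* to *Sgce*, -0.38 to -0.28 for *Mest* to *Copg2*, -2.05 to -1.64 for *Grb10* to *Ddc*, -0.41 to -0.032 for *Ndn* to *Snrpn* and -0.44 to 0.18 for *Igf2r* to *Airn*.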

Other observations

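Of 10 genes that carry or restrain the same growth signals as *Igf2*, *Igf2r*, *Grb10* and *Cdkn1c*, 2 fell, 0 rose and 8 were not called by edgeR (with DESeq2, 2 and 0; 2 were higher at an unadjusted p under 0.05), with a median log2 fold change of -0.28. The count called was 1 to 7 with each sample left out, against 7.83% to 48.0% of all genes. *Irs1*, which encodes an adaptor between the insulin and IGF1 receptors and the kinases below them, fell furthest, from 643 ± 22.4 to 322 ± 61.0 normalised counts (SD, n = 3; log2 fold change -0.99, standard error 0.14, adjusted p = 0.0041, edgeR). *Igf2bp1*, for a protein that binds the *Igf2* mRNA, fell from 1432 ± 124 to 829 ± 171 (log2 fold change -0.79, standard error 0.16, adjusted p = 0.014, edgeR). The related *Igf2bp2* and *Igf2bp3* did not overlap between the stages and were not called (-0.45 and -0.29, adjusted p = 0.11 and 0.093), and both were lower at 15.5 dpc. The ligand gene *Igf1* stood at 2367 ± 73.8 and 2831 ± 328 normalised counts and was not called (0.26, adjusted p = 0.12). It did not overlap either, with 15.5 dpc higher. The receptor genes *Igf1r* and *Insr* overlapped between the stages, with log2 fold changes of -0.46 and -0.26. *Cdkn1a* and *Cdkn1b*, the relatives of *Cdkn1c* that are not imprinted, had log2 fold changes of 0.15 and 0.25, neither called, and *Cdkn1b* did not overlap, with 15.5 dpc higher.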
